A study of Mus musculus with 16 samples.

Results

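Neurexins, neuroligins and cerebellins are cell adhesion and organizer proteins that hold the pre- and postsynaptic sides of a synapse together. The 8 genes described here, Nrxn2, Nrxn3, Nlgn1, Nlgn2, Nlgn3, Cbln1, Cbln2 and Cbln4, were taken by symbol from 27179 genes counted in 16 RNA sequencing libraries of mouse neural stem and progenitor cells. The genes had been chosen from a list drawn up with results of these libraries known, and which values entered that choice is not recorded, so their levels, fold changes and calls are given as a description with no test of their own. Expression was compared in 4 groups of 4 libraries: KAT7-null cells (Kat7lox/lox NesCreT/+) in differentiating culture, Kat7-intact cells (Kat7+/+ NesCreT/+) in differentiating culture, KAT7-null cells in proliferating culture and Kat7-intact cells in proliferating culture. KAT7, also called HBO1, is a histone lysine acetyltransferase. All groups carried 1 NesCreT allele, a Cre transgene driven by Nestin sequences that acts in neural progenitors, and null cells lacked the gene where Cre had recombined the floxed alleles. Cells were isolated from cortex and ganglionic eminence tissue of 4 foetuses per genotype at E14.5, the middle of forebrain neuron production, expanded as neurospheres, and sampled after 3 passages and 3 days of proliferation or after 3 days on laminin in cortical neuron medium following passage 3. These were dissociated cells early in culture, and synapses were not measured.

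Neurexins are presynaptic receptors made from very long genes with several promoters and extensive alternative splicing. They bind neuroligins, which are postsynaptic membrane proteins: in the mouse brain neuroligin 1 is mainly a protein of glutamatergic synapses, neuroligin 2 of GABAergic and other inhibitory synapses, and neuroligin 3 is found at both and also in glia. Cerebellins are secreted C1q-family proteins that bridge neurexins to postsynaptic delta-type glutamate receptors such as GluD1, encoded by Grid1. Cerebellin 1 is best known from the synapses between cerebellar granule cells and Purkinje cells, and cerebellins 2 and 4 are made by forebrain neurons.

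In RefSeq annotation of GRCm38 (mm10), the genes differ widely in size. Nrxn3 (Entrez 18191; chr12:88722701-90334935) spans 1612 kb and Nlgn1 (192167; chr3:25421808-26332866) 911 kb. Nrxn2 (18190; chr19:6418756-6533217) covers 114 kb, Nlgn3 (245537; chrX:101299179-101321350) 22.2 kb and Nlgn2 (216856; chr11:69823123-69837784) 14.7 kb. The cerebellin genes are compact, with Cbln2 (12405) at 7.22 kb, Cbln4 (228942; chr2:172036336-172043466) at 7.13 kb and Cbln1 (12404; chr8:87468853-87472592) at 3.74 kb. No stretch of 75 bases, the read length, was shared between transcripts of members of 1 family in the GENCODE M21 transcripts.

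RefSeq start-site windows (GRCm38, 250 bases before to 50 after the start) matched 4 of the 8 genes, with 7 windows. Shown here are Cbln4, without a count in null cells, the 3 windows of Nrxn3, without a count in proliferating null cells, and Nlgn2, which had counts in every library. Each is printed 5′ to 3′ on the strand of the gene in lower case, and capitals mark CG dinucleotides, the usual target of DNA methylation in mammals.
Cbln4 (chr2:172043417-172043716, minus strand): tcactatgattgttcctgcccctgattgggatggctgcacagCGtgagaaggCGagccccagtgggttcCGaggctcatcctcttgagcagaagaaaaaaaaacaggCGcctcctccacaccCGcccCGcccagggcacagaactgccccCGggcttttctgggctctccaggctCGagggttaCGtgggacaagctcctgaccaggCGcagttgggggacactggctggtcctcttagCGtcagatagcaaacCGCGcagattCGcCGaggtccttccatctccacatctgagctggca
Nrxn3 window 1 (chr12:88794254-88794553, plus strand): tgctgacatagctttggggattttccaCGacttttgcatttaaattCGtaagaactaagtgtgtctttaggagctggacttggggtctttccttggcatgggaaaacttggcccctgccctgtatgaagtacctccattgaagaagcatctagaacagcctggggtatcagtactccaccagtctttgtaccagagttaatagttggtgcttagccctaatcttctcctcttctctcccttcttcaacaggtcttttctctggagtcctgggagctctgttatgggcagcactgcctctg
Nrxn3 window 2 (chr12:88953140-88953439, plus strand): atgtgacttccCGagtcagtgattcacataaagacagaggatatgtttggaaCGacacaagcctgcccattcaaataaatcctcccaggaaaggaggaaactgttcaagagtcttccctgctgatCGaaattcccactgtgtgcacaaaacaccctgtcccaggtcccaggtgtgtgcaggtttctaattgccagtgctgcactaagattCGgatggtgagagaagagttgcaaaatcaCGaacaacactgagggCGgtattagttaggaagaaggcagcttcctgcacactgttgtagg
Nrxn3 window 3 (chr12:89812233-89812532, plus strand): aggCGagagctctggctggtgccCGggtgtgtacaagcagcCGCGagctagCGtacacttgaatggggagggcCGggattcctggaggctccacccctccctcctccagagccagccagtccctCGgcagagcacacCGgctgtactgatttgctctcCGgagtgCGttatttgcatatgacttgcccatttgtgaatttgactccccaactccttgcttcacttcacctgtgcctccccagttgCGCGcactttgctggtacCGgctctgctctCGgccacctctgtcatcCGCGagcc
Nlgn2 (chr11:69837735-69838034, minus strand): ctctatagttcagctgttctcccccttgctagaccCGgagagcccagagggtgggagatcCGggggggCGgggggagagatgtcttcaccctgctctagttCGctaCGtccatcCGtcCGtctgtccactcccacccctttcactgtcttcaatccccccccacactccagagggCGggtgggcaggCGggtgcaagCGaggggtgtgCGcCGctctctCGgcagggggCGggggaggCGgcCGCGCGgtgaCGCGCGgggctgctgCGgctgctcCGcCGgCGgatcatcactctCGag

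The windows differed in base composition. Nlgn2 held 26 CG dinucleotides at 68.7% GC, more CG than 83.1% of the 32851 mouse windows, whose medians were 7 CG and 52.7% GC. Cbln4 held 15 at 60.3% GC. Among the Nrxn3 starts, the first held 2 CG (47.3% GC), the second 6 (47.7% GC) and the third 16 (60.7% GC). Cbln4, at 0 counts in both null groups, thus had a start with more CG than the median. Nrxn3, at 0 only in proliferating null cells, had starts on both sides of it. Which Nrxn3 start was used was not measured, and Cbln2, also at 0 in proliferating null cells, had no window. The 2 windows of Nlgn1 held 14 and 6 CG and are not printed. On both strands, 5 motifs were searched: CANNTG, the E-box core (present in 72.3% of all windows), CAGATG, which is 1 form of it and overlaps it (17.2%), TATAAA (13.6%), CCAAT (37.4%) and GGGCGG (35.7%). CANNTG matched 2 times in Cbln4, 1 time in Nlgn2, 5 times in the third Nrxn3 window and 1 time in the second. CAGATG matched 1 time, in Cbln4, CCAAT 1 time in Cbln4, and GGGCGG 2 times in Cbln4, 3 times in Nlgn2 and 1 time in the second Nrxn3 window, while TATAAA was found in none of these 5 windows and the first Nrxn3 window held none of the 5 motifs. These matches describe letters only.

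Kat7 had 1 count in all null differentiating libraries together, against 103 ± 3.06 CPM (counts scaled to library size) in intact differentiating cells (SD, n = 4), which is 0.00680% of the intact level (95% counting interval 0.000172 to 0.0379%). It had 8 counts in null proliferating libraries, against 139 ± 5.59 CPM in intact proliferating cells, or 0.0551% (0.0238 to 0.109%). Library totals ran between 16.8 and 47.9 M counts. Replicate 1 of the intact differentiating and of the intact proliferating libraries stood apart from the other 3 of their groups in neuronal and other cell type markers. The summed level of 6 glutamatergic markers was 639 CPM in the first, against 58.6 to 201 CPM in the other intact differentiating libraries, and 12.3 CPM in the second, against 1.29 to 1.62 CPM in the other intact proliferating libraries. The first was lower in summed oligodendrocyte lineage (3573, against 5703 to 6932 CPM) and astrocyte markers (1826, against 2601 to 2800 CPM). The second was higher in summed astrocyte (1905, against 1212 to 1347 CPM) and GABAergic markers (15.5, against 2.79 to 3.14 CPM). Both were highest of their groups in mural and fibroblast markers (86.6 and 7.41 CPM). Where leaving these 2 libraries out changed a call or moved a value by over 1.5 times, the value without them is given beside it. In bulk RNA, fewer cells of a type and less RNA per cell cannot be told apart. Neuron marker levels moved with genotype too: the summed glutamatergic markers were 3.42 to 9.56 CPM in null differentiating cells, against 58.6 to 639 CPM in intact differentiating cells, and 0.678 to 1.22 CPM in null proliferating cells (Slc17a6 at 0), against 1.29 to 12.3 CPM in intact proliferating cells. Lower in null cells were 6 of these 6 markers while differentiating and 2 while proliferating. Summed over 10 general neuron markers, levels were 2367 to 2776 CPM in null differentiating cells, against 2260 to 6356 CPM in intact ones. In null proliferating cells they were 1380 to 1644 CPM, against 1277 to 1501 CPM in intact ones, with 0 markers higher and 3 lower. Map2 had the highest mean of the 10 in every group (1602, 1271, 1076 and 974 CPM, in that order), so it weighed heavily in these sums. While differentiating, Map2 was the 1 marker higher in null cells (log2 fold change 0.33 ± 0.09). The 6 lower ran from Elavl3 (-1.05 ± 0.30) to Stmn2 (-8.86 ± 1.18). The median log2 fold change of the 10 was -1.41 while differentiating and -0.08 while proliferating. The 8 GABAergic markers summed to 279 to 390 CPM in null differentiating cells (Sst at 0), against 59.5 to 249 CPM in intact ones, with 3 higher and 2 lower, and to 18.3 to 29.3 CPM in null proliferating cells (Sst at 0), against 2.79 to 15.5 CPM in intact ones, with 2 higher and 1 lower. Glial markers moved as well: 8 astrocyte markers summed to 5265 to 8329 CPM in null differentiating cells, against 1826 to 2800 CPM in intact ones (5 higher, 0 lower), and 8 oligodendrocyte lineage markers to 1903 to 2366 CPM, against 3573 to 6932 CPM (0 higher, 5 lower). In proliferating cells the astrocyte sums were 2443 to 3728 CPM in null and 1212 to 1905 CPM in intact cells (4 higher, 0 lower), and the oligodendrocyte sums 1768 to 2256 CPM in null and 2979 to 3190 CPM in intact cells (0 higher, 6 lower). The part of any of these markers in the levels below was not tested.

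Of the 8 genes, Cbln1, Cbln2 and Cbln4 were far lower in null than in intact cells in both culture conditions. Nrxn3 was 3.09-fold lower in differentiating and at least 94.1-fold lower in proliferating null cells. Nlgn2 was modestly lower in both conditions, and Nrxn2 and Nlgn1 did not pass the threshold in either. All 8 genes passed the filter on low counts, among 15177 genes tested with edgeR's quasi-likelihood model. The call was a Benjamini-Hochberg adjusted p under 0.05 over all of these. In differentiating cells 0 of the 8 genes were called higher in null cells and 5 lower (Nrxn3, Nlgn2, Cbln1, Cbln2, Cbln4), where 24.3% of all genes tested were called higher and 22.0% lower. In proliferating cells 0 were called higher and 6 lower (the same 5 and Nlgn3), where 19.0% of all genes were called higher and 19.7% lower. The median log2 fold change of the 8 genes, with genes at 0 set to their bound, was -0.99 in differentiating cells, where that of all genes was 0.04, and -2.53 in proliferating cells, where that of all genes was -0.01. Since the genes were chosen with these comparisons known, nothing is read from those counts and medians.

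**Figure D1:**
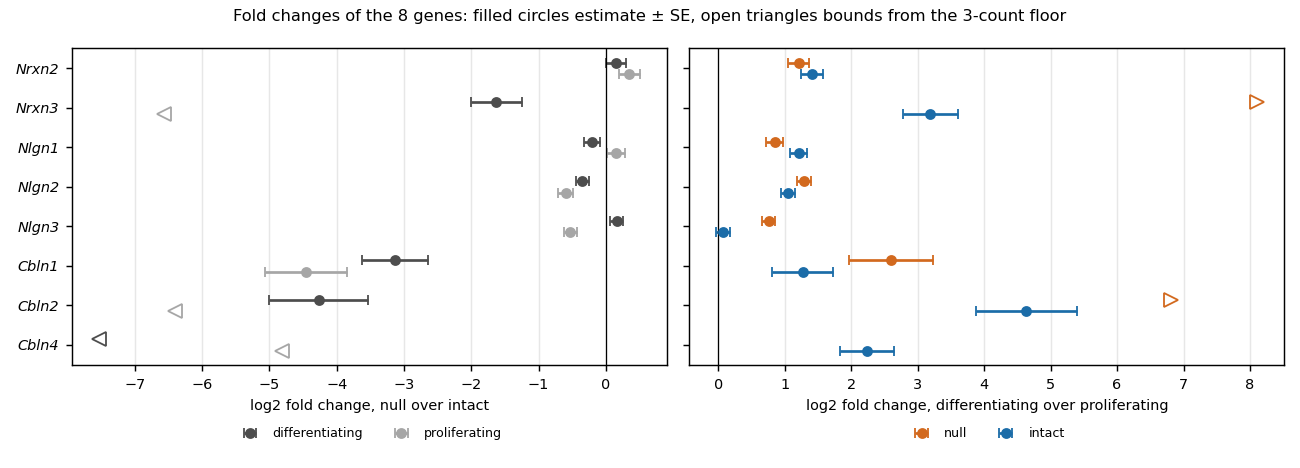
Log2 fold changes of the 8 genes. Left, null over intact in differentiating (dark) and proliferating (light) cells; right, differentiating over proliferating in null (orange) and intact (blue) cells. Circles with bars are estimates ± SE and open triangles are lower bounds of the size of the change for genes without counts in 1 of the groups. The 3 cerebellins, and Nrxn3 in proliferating cells, lie far to the left in the left panel. Nrxn3 in differentiating cells lies at -1.63, and Nrxn2 and the neuroligins lie between -0.60 and 0.35.

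Of the 2 neurexin genes, Nrxn3 was lower in null cells in both conditions. Its level was 8.92, 5.48, 7.09 and 10.7 CPM in null differentiating cells, against 31.3, 17.8, 35.9 and 14.4 CPM in intact differentiating cells. All null libraries were below all intact ones, although intact values themselves spread over more than a doubling. The log2 fold change was -1.63 ± 0.38 (SE), a 3.09-fold lower level, and without the 2 libraries that stand apart it was -1.50. In proliferating cells Nrxn3 had 0 counts in each of the 4 null libraries, against 5.09, 2.27, 1.70 and 1.85 CPM in intact ones. With 3 counts over the null group as the floor (0.0288 CPM), the level in null cells was at least 94.1-fold lower. Without intact replicate 1, the highest of its group, the bound was 66.8-fold, and without null replicate 4 it was 62.2-fold.

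Nrxn2 was the abundant neurexin of the pair and was not lower in null cells. It measured 291, 323, 287 and 269 CPM in null differentiating cells, against 335, 230, 269 and 223 CPM in intact differentiating cells, with a log2 fold change of 0.15 ± 0.15. The groups overlapped. In proliferating cells it measured 110, 108, 112 and 177 CPM in null cells, against 106, 97.7, 105 and 88.3 CPM in intact cells, with a log2 fold change of 0.35 ± 0.16. Here every null library was above every intact one, but the difference missed the threshold. It passed without the 2 libraries that stand apart (0.39) or without intact differentiating replicate 1 (0.35). With Nrxn3 low and Nrxn2 not lower in null cells, the Nrxn3 share of the summed length-scaled level of these 2 genes was smaller in null cells. It was 1.14 to 2.63% in null differentiating cells, against 4.21 to 8.32% in intact differentiating cells. In proliferating cells it was 0% in null and 1.09 to 3.16% in intact cells. The counts are per gene, so long and short neurexin isoforms and splice forms were not separated.

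All 3 cerebellin genes among the 8 were much lower in null cells. Cbln3, a cerebellin gene outside the 8, was low in every group and passed the threshold in neither condition. Its log2 fold change was -0.88 ± 0.44 in differentiating and -0.41 ± 0.47 in proliferating cells. Cbln4 had 0 counts in all 8 null libraries. Its level in intact cells was 5.69, 3.57, 3.34 and 2.64 CPM while differentiating and 0.823, 0.704, 1.34 and 0.360 CPM while proliferating, so it was counted in every intact library at a low level. Against the 3-count floor (0.0210 CPM in null differentiating and 0.0288 CPM in null proliferating cells), Cbln4 was at least 185-fold lower in null cells while differentiating and at least 28.0-fold lower while proliferating. Those bounds were 149- and 27.8-fold without the 2 libraries that stand apart, and the second was 18.5-fold without null proliferating replicate 4. Of the 15177 genes tested, 25 (0.165%) had no count in any null library, and Cbln4 was among the 12 of these (0.0791% of genes tested) that had counts in all 8 intact libraries.

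Cbln2, the most abundant cerebellin of differentiating cells, measured 2.55, 3.49, 3.92 and 2.61 CPM in null differentiating cells, against 35.2, 65.3, 58.1 and 84.4 CPM in intact ones. The groups were separated by a wide gap, with a log2 fold change of -4.27 ± 0.73, a 19.3-fold lower level in null cells (-4.45 without the 2 libraries that stand apart). In null proliferating cells all 4 libraries were at 0, against 7.75, 0.758, 1.15 and 0.180 CPM in intact ones. The bound was at least 84.9-fold lower in null cells, and 1 library decided its size: without intact proliferating replicate 1, which held the 7.75 CPM, it was 23.9-fold. Without null proliferating replicate 4 it was 56.2-fold.

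Cbln1 was low but detected in all groups. It measured 0.941, 1.13, 0.915 and 1.16 CPM in null differentiating cells, against 17.0, 5.58, 11.2 and 2.55 CPM in intact ones, where replicate 1 was highest. The log2 fold change was -3.13 ± 0.49, an 8.76-fold lower level, or -2.63 without the 2 libraries that stand apart. In proliferating cells it measured 0.140, 0.247, 0.333 and 0.0283 CPM in null cells, against 3.34, 3.79, 3.31 and 4.59 CPM in intact cells. This is 17 counts against 313, and the null level was 4.33% of the intact one (95% counting interval 2.49 to 7.04%), with a log2 fold change of -4.46 ± 0.61. The null and intact groups did not overlap in either condition. Summed per kb of gene model, the 3 cerebellins reached 1.56 to 2.17 CPM per kb in null differentiating cells, against 25.3 to 40.4 in intact differentiating cells, and 0.0121 to 0.143 in null proliferating cells, against 2.18 to 5.25 in intact proliferating cells.

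**Figure D2:**
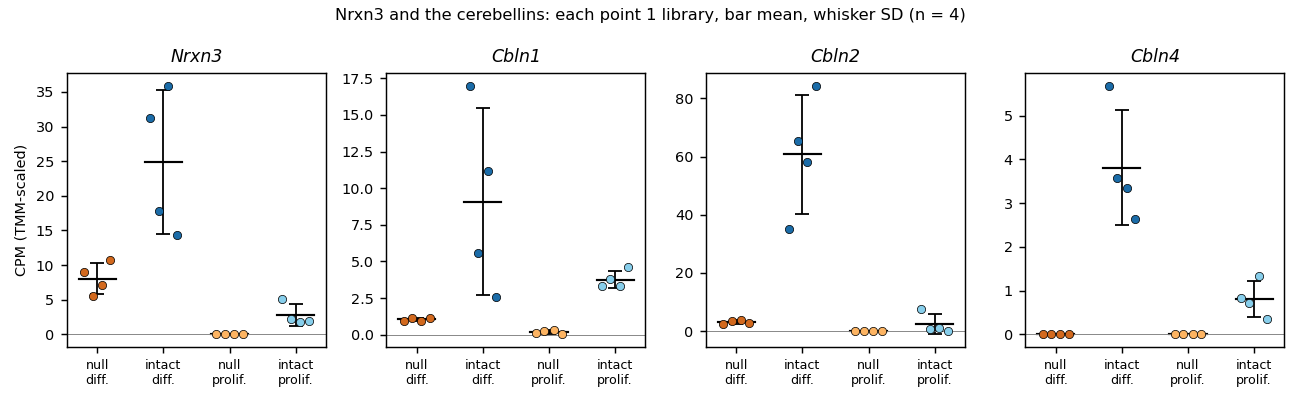
Levels of Nrxn3, Cbln1, Cbln2 and Cbln4 in CPM on scaled library sizes, 1 point per library, with the mean (bar) and SD (whisker) of 4 libraries per group. Null cells are in orange and intact cells in blue, and the null libraries sit below the intact libraries of the same condition in every panel, with Nrxn3 and Cbln2 at 0 in null proliferating cells and Cbln4 at 0 in both null groups.

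Nlgn2 was lower in null cells in both conditions, by less than a doubling. Nlgn2, the neuroligin of inhibitory synapses, measured 281, 280, 222 and 232 CPM in null differentiating cells, against 333, 310, 329 and 323 CPM in intact ones, with a log2 fold change of -0.35 ± 0.10. It measured 99.5, 106, 97.8 and 112 CPM in null proliferating cells, against 194, 146, 154 and 134 CPM in intact ones, with a log2 fold change of -0.60 ± 0.11. In both conditions every null library was below every intact one. Without the 2 libraries that stand apart the values were -0.34 and -0.48.

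Nlgn3 differed with genotype in proliferating cells. It measured 64.5, 73.9, 70.3 and 89.6 CPM in null proliferating cells, against 114, 112, 104 and 101 CPM in intact ones, with no overlap and a log2 fold change of -0.53 ± 0.10 (-0.50 without the 2 libraries that stand apart). In differentiating cells the groups overlapped, at 136, 136, 114 and 120 CPM in null and 102, 116, 109 and 125 CPM in intact cells, and the log2 fold change of 0.16 ± 0.10 missed the threshold. One limit belongs to this gene: in the GENCODE M21 annotation, 41.2% of its exon bases are shared on the same strand with the predicted gene Gm21986. That symbol was not found in the deposited counts, and the sources used here do not say how reads of the shared bases were counted.

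Nlgn1, the neuroligin of glutamatergic synapses, measured 51.6, 53.6, 50.1 and 42.3 CPM in null differentiating cells, against 61.5, 55.4, 56.9 and 54.1 CPM in intact ones. The null libraries were all below the intact ones, yet the log2 fold change of -0.21 ± 0.12 missed the threshold, which it passed when only the 8 differentiating libraries were fitted (-0.26). In proliferating cells it measured 26.5, 25.0, 25.5 and 32.6 CPM in null and 31.4, 23.9, 23.8 and 19.6 CPM in intact cells, with overlapping groups and a log2 fold change of 0.15 ± 0.13 that missed the threshold. Without the 2 libraries that stand apart, or without intact proliferating replicate 1 alone, this was 0.29 and passed.

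**Figure D3:**
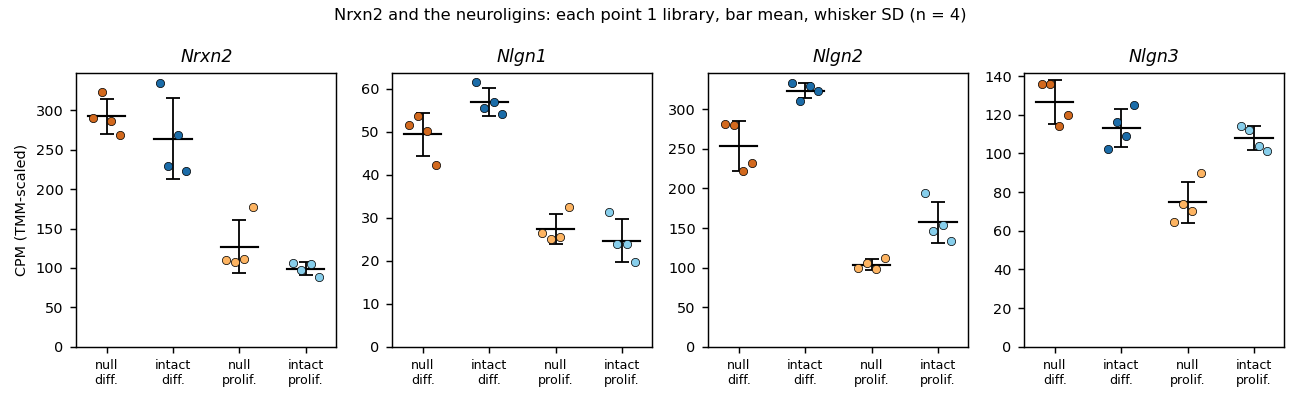
Levels of Nrxn2, Nlgn1, Nlgn2 and Nlgn3 in CPM on scaled library sizes, 1 point per library, with the mean (bar) and SD (whisker) of 4 libraries per group. Null cells are in orange and intact cells in blue, and differentiating cells lie above proliferating cells of the same genotype in all but the intact Nlgn3 libraries, whose ranges overlap.

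Levels can be ranked between genes only per kb of gene model. In null differentiating cells the order was Nlgn2 (50.7 ± 6.22 CPM per kb; SD, n = 4) and Nrxn2 (43.9 ± 3.36), whose ranges overlapped, then Nlgn3 (32.6 ± 2.86), Nlgn1 (8.70 ± 0.873), Cbln2 (1.43 ± 0.306), Nrxn3 (0.822 ± 0.230), Cbln1 (0.444 ± 0.0543) and Cbln4 (0). In intact differentiating cells Nlgn2 (64.8 ± 1.98 CPM per kb) led, ahead of Nrxn2 (39.7 ± 7.72), then Nlgn3 (29.2 ± 2.46) and Cbln2 (27.6 ± 9.24), which overlapped, and Nlgn1 (9.54 to 10.8). Cbln1 (3.89 ± 2.73), Nrxn3 (2.54 ± 1.06) and Cbln4 (1.36 ± 0.470) followed as neighbours with overlapping ranges. Cbln2 thus stood beside Nlgn3 in intact differentiating cells and below Nlgn1 in null ones: its mean level lay above 22.8% of tested genes in null and above 79.5% in intact differentiating cells.

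In null proliferating cells Nlgn2 (20.8 ± 1.30 CPM per kb), Nlgn3 (19.2 ± 2.76) and Nrxn2 (19.0 ± 5.00) overlapped, Nlgn1 followed at 4.83 ± 0.620, Cbln1 at 0.0800 ± 0.0565, and the other 3 genes were at 0. In intact proliferating cells Nlgn2 (31.4 ± 5.17) and Nlgn3 (27.8 ± 1.72) overlapped, with Nrxn2 at 14.9 ± 1.25 and Nlgn1 at 4.35 ± 0.870 CPM per kb. Cbln1 (1.61 ± 0.255), Cbln2 (1.12 ± 1.61), Cbln4 (0.288 ± 0.144) and Nrxn3 (0.279 ± 0.163) closed the order, and of these neighbours Cbln1 and Cbln2, Cbln2 and Cbln4, and Cbln4 and Nrxn3 overlapped.

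Within the neuroligin family the balance between Nlgn2 and Nlgn3 differed with genotype in differentiating cells. Nlgn3 took 34.9 to 36.5% of the summed length-scaled neuroligin level in null differentiating cells, against 25.4 to 30.2% in intact ones, while Nlgn2 took 53.7 to 56.0%, against 60.8 to 64.2%. Neither pair of ranges overlapped. In proliferating cells the Nlgn3 share was 40.3 to 45.0% in null and 40.0 to 46.4% in intact cells, and the Nlgn2 share 43.7 to 48.3% in null and 46.9 to 52.5% in intact cells, both overlapping. The Nlgn1 share was the one that separated there, at 9.86 to 11.4% in null proliferating cells, against 6.14 to 7.52% in intact ones. In differentiating cells it was 8.81 to 10.7% in null and 8.97 to 10.4% in intact cells.

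The makeup of the 3 cerebellins listed was more variable. Cbln2 took 70.5 to 81.9% in null differentiating cells, against 63.2 to 95.0% in intact ones, and Cbln1 18.1 to 29.5%, against 2.70 to 28.8%. The remaining gene, Cbln4, took 0%, against 2.33 to 8.04%. In null proliferating cells every count of these 3 genes was from Cbln1, with 17 counts. Cbln3 was left out of these shares and had 46 counts there. In intact proliferating cells the Cbln1 share ran from 27.3% in replicate 1 to 90.3% in replicate 4, the Cbln2 share from 3.76 to 67.1% and the Cbln4 share from 5.61 to 19.7%.

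**Figure D4:**
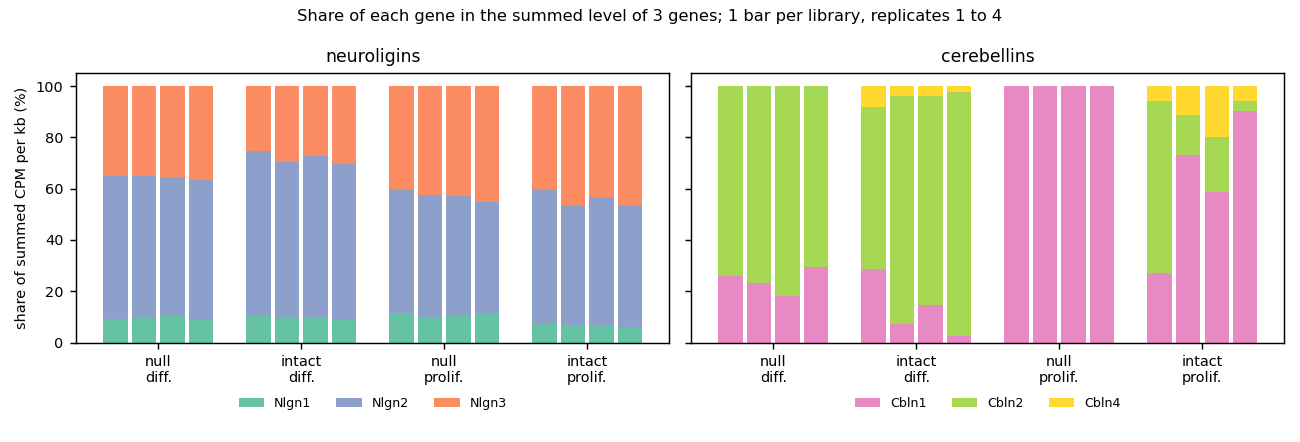
Share of each gene in the summed CPM per kb of the 3 genes shown, 1 bar per library in the order of replicates 1 to 4, for neuroligins (left) and cerebellins (right). The Nlgn3 share is larger in null than in intact differentiating cells, and Cbln4 (yellow) appears only in bars of intact cells.

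Differentiation was accompanied by higher levels of nearly all of these genes in both genotypes. In null cells 7 of the 8 were called higher in differentiating than in proliferating culture and 0 lower, where 34.6% of all genes tested were called higher and 34.4% lower. In intact cells 7 were called higher and 0 lower, where 36.7% of all genes were called higher and 35.3% lower. The median log2 fold change was 1.25 in null and 1.34 in intact cells, where that of all genes was 0.02 in both. The 2 responses do not share libraries with each other, but each shares its libraries with the genotype comparisons above.

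The size of the response differed among the genes. In null cells Nrxn3 was at least 276-fold and Cbln2 at least 112-fold higher in differentiating cells, both against proliferating libraries at 0; without null proliferating replicate 4 these bounds were 183- and 74.2-fold. Cbln1 reached 631% of its proliferating level there (95% counting interval 381 to 1113%), with a log2 fold change of 2.60 ± 0.63, and Cbln4 had no count in either condition. In intact cells the log2 fold changes were 3.19 ± 0.41 for Nrxn3, 4.63 ± 0.76 for Cbln2, 2.24 ± 0.41 for Cbln4 and 1.27 ± 0.46 for Cbln1. The Cbln2 value was 6.46 without intact proliferating replicate 1 and 6.65 without both libraries that stand apart. The Cbln1 groups overlapped in intact cells, and its call was lost without the 2 libraries that stand apart (0.72), without intact differentiating replicate 1 (0.77) or 3 (1.16) and without intact proliferating replicate 3 (1.22).

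Nrxn2, Nlgn1 and Nlgn2 rose in both genotypes. Nrxn2 had log2 fold changes of 1.21 ± 0.16 in null and 1.41 ± 0.16 in intact cells, Nlgn1 of 0.85 ± 0.13 and 1.21 ± 0.13, and Nlgn2 of 1.29 ± 0.11 and 1.05 ± 0.11. Nlgn3 was the exception: its log2 fold change was 0.76 ± 0.10 in null cells, against 0.07 ± 0.10 in intact cells, where it did not pass. The difference between the responses (null minus intact) was called for 2 of the 8 genes, both higher in null cells, where 12.7% of all genes were called higher and 9.93% lower. These were Nlgn3, at 0.69 ± 0.14 on the log2 scale, and Nrxn3, for which no size can be given because null proliferating cells had no counts. For Nrxn2 the difference was -0.21 ± 0.22, for Nlgn1 -0.36 ± 0.18, for Nlgn2 0.24 ± 0.15 and for Cbln1 1.33 ± 0.79, none of which passed. The Nlgn1 difference passed without intact proliferating replicate 1 (-0.50) and without both libraries that stand apart (-0.46). The Nlgn3 difference was 0.61 without those 2 libraries.

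For the 4 genes whose group means spanned over 2 on the log2 scale, the genes with the most alike profile over the 16 libraries were sought among 11997 genes. The measure was the root mean square difference of log2 CPM after each gene was centred on its own mean. A prior count of 2 stood in log2 CPM, and Nrxn3, Cbln2 and Cbln4 had groups without counts, so their differences from other genes depend in part on that prior and are not measured sizes. Nearest to Nrxn3 were Csmd3, which encodes a large CUB and sushi domain protein (difference 0.49), and Unc5c, a netrin receptor gene (0.68). The nearest to Cbln2 were Nfasc, encoding the axonal adhesion protein neurofascin (0.51), and Gpr149, an orphan receptor gene (0.55). Cbln4 was nearest to Cadps2, a gene of dense-core vesicle release (0.62), and Man1a, a Golgi mannosidase gene (0.69). Cbln1 was nearest to Col4a1, a type IV collagen chain gene (0.58), and St8sia4, a polysialyltransferase gene (0.62). These are likenesses of profile in libraries that share 4 groups.

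The lists of partner genes below were chosen with earlier results of these data known, so their counts are a description. Over all genes tested, 24.3% were called higher and 22.0% lower in null differentiating cells (median log2 fold change 0.04), and 19.0% higher and 19.7% lower in null proliferating cells (median -0.01). Leaving out the 2 libraries that stand apart raised the calls over all genes. They went from 3691 higher and 3345 lower to 4065 and 3494 in null differentiating cells. In null proliferating cells they went from 2879 higher and 2985 lower to 3662 and 3649. Of 25 listed ligands and coligands of neurexins and neuroligins 23 were tested, with 2 called higher and 13 lower in null differentiating cells (median log2 fold change -0.88) and 4 higher and 10 lower in null proliferating cells (-0.41). Without the 2 libraries that stand apart, 2 were higher and 14 lower in null differentiating cells and 6 higher and 10 lower in null proliferating cells. Grid1, whose protein binds cerebellins, was among the genes that fell, at 36.5 ± 4.84 CPM in differentiating null cells and 50.7 ± 3.15 CPM in differentiating intact cells (log2 fold change -0.48 ± 0.17, edgeR adjusted p = 0.028) and at 7.38 ± 2.07 CPM in proliferating null cells and 20.5 ± 4.26 CPM in proliferating intact cells (-1.46 ± 0.18, edgeR adjusted p = 1.7e-05). The differentiating call was lost without any 1 of 5 libraries: intact differentiating replicate 3 (-0.45) or 4 (-0.45), or null differentiating replicate 2 (-0.44), 3 (-0.42) or 4 (-0.49).

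Among the postsynaptic leucine-rich repeat ligands of neurexins, Lrrtm4 measured 0.167 ± 0.104 CPM in differentiating null cells and 9.02 ± 0.394 CPM in differentiating intact cells (log2 fold change -5.71 ± 0.39, edgeR adjusted p = 6.9e-08). In proliferating cells it had 1 count in null and 155 in intact libraries, or 0.514% (95% counting interval 0.0129 to 2.91%), a log2 ratio of -7.60. The ratio was -7.01 without null proliferating replicate 4, and without null proliferating replicate 1, which held the 1 count, Lrrtm4 was at least 47.0-fold lower. Lrrtm3 fell to 0.284 ± 0.168 CPM in null proliferating cells, against 11.9 ± 1.59 CPM in intact ones (-5.41 ± 0.34, edgeR adjusted p = 5e-08). Lrrtm2 gave 62.0 CPM in differentiating null cells and 56.3 CPM in differentiating intact cells and did not pass (0.14 ± 0.38). Clstn2, a calsyntenin gene, measured 0.0849 ± 0.0501 CPM in differentiating null cells and 28.8 ± 29.2 CPM in differentiating intact cells, a wide intact spread (-8.33 ± 0.82, edgeR adjusted p = 1.9e-06). The log2 fold change was -7.34 ± 0.50 without the 2 libraries that stand apart. C1ql3, which encodes a secreted C1q-like protein related to the cerebellins, was lower in both conditions, by log2 fold changes of -1.59 ± 0.16 in differentiating (edgeR adjusted p = 2.9e-06) and -1.82 ± 0.17 in proliferating cells (edgeR adjusted p = 1.8e-06). Dag1, the gene of the neurexin ligand dystroglycan, rose in null cells, by 0.47 ± 0.10 while differentiating (edgeR adjusted p = 0.0014) and 0.60 ± 0.10 while proliferating (edgeR adjusted p = 0.00029). Adgrb3, which encodes a C1q-like protein receptor, was also higher in both, at 0.36 ± 0.09 and 0.47 ± 0.09. The genes of the MDGA proteins, which block neuroligins from binding neurexins, differed by condition: Mdga2 was lower in null differentiating (-0.89 ± 0.16) and higher in null proliferating cells (0.72 ± 0.16), while Mdga1 was higher in null proliferating cells (1.04 ± 0.25) and did not pass in differentiating cells (-0.27 ± 0.24).

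Scaffold genes, which encode the intracellular partners of neurexin and neuroligin tails, were called lower more often than higher. Of 18 tested, 0 were higher and 13 lower in null differentiating cells (median log2 fold change -0.97), and 0 higher and 8 lower in null proliferating cells (-0.42). Without the 2 libraries that stand apart 1 was higher and 13 were lower in differentiating cells. Lin7a, a partner of the CASK scaffold, had 0 counts in null differentiating cells, against 13.4 ± 8.12 CPM in intact ones, at least 665-fold lower (edgeR adjusted p = 3.7e-07), a bound of 445-fold without the 2 libraries that stand apart. In proliferating cells it had 2 counts in null and 276 in intact libraries, or 0.578% (95% counting interval 0.0696 to 2.11%). Cask itself, which binds neurexin tails, was at 134 ± 5.30 CPM in differentiating null cells and 305 ± 29.1 CPM in differentiating intact cells (-1.19 ± 0.08, edgeR adjusted p = 8.9e-08). Dlg2, a PSD-95 family gene, measured 0.502 ± 0.114 CPM in differentiating null cells and 81.8 ± 91.3 CPM in differentiating intact cells (-7.34 ± 0.94, edgeR adjusted p = 1.9e-05). Intact cells had 37.1 ± 22.6 CPM of Dlg2 without the 2 libraries that stand apart, and the log2 fold change was -6.19 ± 0.46. Homer1 measured 39.0 ± 1.28 CPM in differentiating null cells and 70.6 ± 19.6 CPM in differentiating intact cells (-0.86 ± 0.14, edgeR adjusted p = 0.00016). Gphn, the gene of gephyrin, the scaffold of inhibitory synapses, gave 82.0 CPM in differentiating null cells and 80.0 CPM in differentiating intact cells and did not pass (0.03 ± 0.07).

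Of 32 other trans-synaptic adhesion genes, 3 were higher and 21 lower in null differentiating cells (median log2 fold change -1.28), and 3 higher and 16 lower in null proliferating cells (-0.54). Without the 2 libraries that stand apart, 8 were higher and 18 lower in null proliferating cells, and 3 higher and 21 lower in null differentiating cells. Calls over all genes rose there too, as given above. Ptprd, a presynaptic receptor tyrosine phosphatase gene, measured 6.14 ± 1.59 CPM in differentiating null cells and 145 ± 84.4 CPM in differentiating intact cells (-4.56 ± 0.38, edgeR adjusted p = 3.8e-07, and -4.07 ± 0.22 without the 2 libraries that stand apart), and 0.281 ± 0.223 CPM in proliferating null cells and 29.7 ± 6.71 CPM in proliferating intact cells (-6.61 ± 0.51, edgeR adjusted p = 3.4e-07). One of its postsynaptic ligands, Slitrk1, had log2 fold changes of -5.00 ± 0.49 in differentiating (edgeR adjusted p = 1.9e-06) and -5.16 ± 0.59 in proliferating cells (edgeR adjusted p = 1.1e-05). Lrrc4c, a netrin-G ligand gene, had log2 fold changes of -3.00 ± 0.21 in differentiating (edgeR adjusted p = 1e-07) and -3.18 ± 0.23 in proliferating cells (edgeR adjusted p = 1.5e-07). Ptprs, a phosphatase gene related to Ptprd, was instead higher in null differentiating cells, at 1135 CPM against 860 CPM in intact ones (0.40 ± 0.11, edgeR adjusted p = 0.0075), and Cadm4 was higher in both conditions (0.73 ± 0.16 in differentiating and 0.75 ± 0.16 in proliferating cells).

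Of the 3 KHDRBS genes, whose RNA-binding proteins regulate alternative splicing of neurexin transcripts, 2 were lower in both conditions. Khdrbs3 measured 43.2 ± 1.60 CPM in differentiating null cells and 143 ± 27.0 CPM in differentiating intact cells (-1.73 ± 0.12, edgeR adjusted p = 9.4e-08), and 66.8 ± 1.39 CPM in proliferating null cells and 178 ± 26.5 CPM in proliferating intact cells (-1.42 ± 0.12, edgeR adjusted p = 7.9e-07). Khdrbs2 measured 5.45 ± 0.555 CPM in differentiating null cells and 21.1 ± 2.42 CPM in differentiating intact cells (-1.95 ± 0.44, edgeR adjusted p = 0.002), and had 4 counts in null and 72 in intact proliferating libraries (-4.52 ± 0.89, edgeR adjusted p = 0.0011, and -3.15 ± 0.57 without the 2 libraries that stand apart). Khdrbs1 was at 333 CPM in differentiating null cells and 335 CPM in differentiating intact cells and passed in neither condition. Splice forms of the neurexins themselves were not analysed here.

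**Figure D5:**
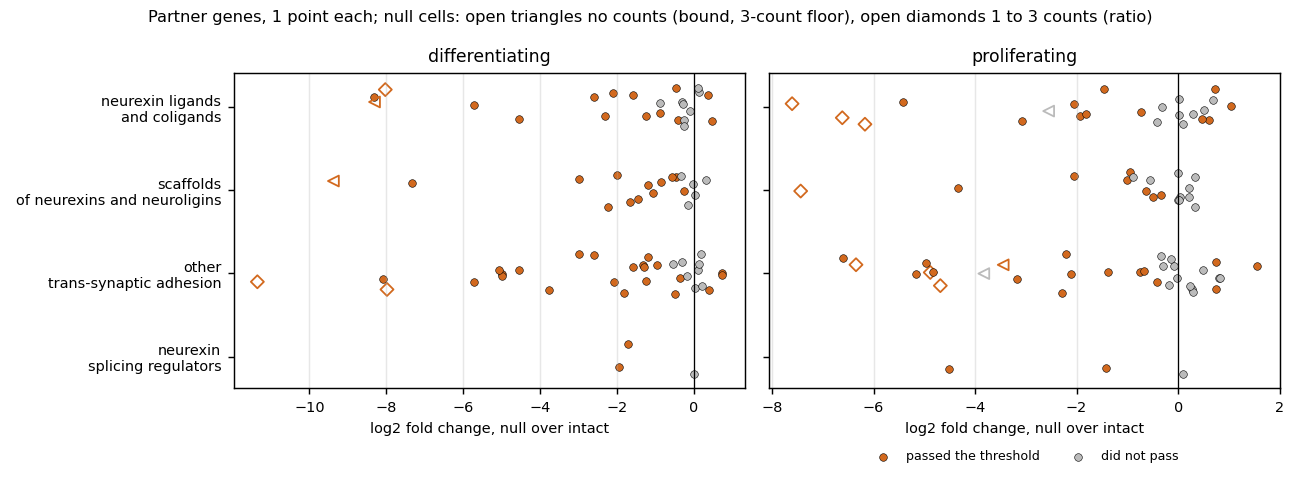
Log2 fold changes, null over intact, of the tested genes of the 4 partner lists in differentiating (left) and proliferating (right) cells. Each point is 1 gene: filled where the fit gives an estimate, orange where it passed the threshold and grey where it did not, open diamonds for ratios of genes with 1 to 3 counts in null cells and open triangles for bounds of genes without counts there. Most orange points lie left of 0 in each list.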

How the data were processed

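Polyadenylated RNA of 16 libraries had been read as 75-base pairs. The deposited values are raw counts of reads per gene, beside the gene model length, per the file headers; per the submitters' processing notes the tools were bcl2fastq and featureCounts and the build mm10. The aligner, the annotation, the strand setting and tool versions were not given in the sources used here. A combined table held the same counts in all 16 libraries and was not used. Of 27179 identifiers, 25275 matched RefSeq GRCm38 symbols. Replicates were cells of 4 foetuses per genotype and correlated at r = 0.948 to 0.994 on log2 CPM.

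The model was edgeR 4.0.16 (R 4.3.3): filterByExpr with a minimum count of 10 (15177 genes), TMM scaling (factors 0.933 to 1.078), 1 mean per group, no covariate, quasi-likelihood F tests, Benjamini-Hochberg adjustment over all genes, calls under 0.05. The SE is the unshrunk log2 fold change over the square root of F and can be too small where counts are few. CPM uses the TMM-scaled library sizes, and CPM per kb divides by the gene model length. A group without counts was set to a floor of 3 counts over the group. Intervals and floors cover counting error only. Without a spike-in, changes are relative. The fit was tested on simulated data.

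The 8 genes, partner lists and markers were chosen with earlier results of these data known. Named partner genes were up to 4 called genes of lowest adjusted p per list and genotype comparison, and other list genes could be named with their values; 1 gene that met the rule is not reported here. Alternatives were library size and upper quartile scaling, no filter, a minimum count of 50, DESeq2 1.42.0, only the groups compared, blocks by replicate number, and leaving out libraries.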

Additional observations from a re-analysis of the deposited data

Results flagged for a closer look

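Among 28 sets of 4 libraries (the 8 genes in 4 groups, without those at 0 throughout), 3 held a library whose gap to the nearest of the others took most of the range of the set (above Dixon's 95% critical value), which chance gives in about 1 in 20 sets. Nrxn2 measured 177 CPM in null proliferating replicate 4, against 108 to 112 CPM in the other null proliferating libraries. Nrxn3 measured 5.09 CPM in intact proliferating replicate 1, against 1.70 to 2.27 CPM in the other intact proliferating libraries. Cbln2 measured 7.75 CPM in the same library, against 0.180 to 1.15 CPM in the others. That library also held 12.3 CPM of glutamatergic markers, against 1.29 to 1.62 CPM in the others. It was highest too in GABAergic (15.5, against 2.79 to 3.14 CPM) and astrocyte markers (1905, against 1212 to 1347 CPM). In intact differentiating cells the glutamatergic sum was 639 CPM in replicate 1 and 58.6 CPM in replicate 4. Cbln2 measured 35.2 and 84.4 CPM in these 2 libraries and Nrxn3 31.3 and 14.4 CPM. The part of any of these markers in the Nrxn3 and Cbln2 levels was not tested. The responses of Nlgn3 to differentiation differed between genotypes by 0.69 on the log2 scale (null minus intact) and passed the threshold over all genes.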

How the results depend on the processing

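Over 25 alternative settings, 719 of 733 fold changes of the 8 genes kept their direction and their side of the threshold, 7 lost the call, 7 gained it and 0 reversed. The 7 losses were all of Cbln1 between differentiating and proliferating intact cells. Besides the libraries named above, its log2 fold change of 1.27 missed the threshold with only the groups compared (1.28). The 7 gains were of Nrxn2 and Nlgn1, as given above. The lower bounds of Nrxn3, Cbln2 and Cbln4 passed the threshold without each library in turn. The total of the 8 genes called stayed within 1.5 times in each comparison under every setting run, but without the 2 libraries that stand apart 2 were higher and 6 lower in null proliferating cells (0 and 6 with all libraries), and the difference between responses was higher for 2 and lower for 1 (2 and 0 with all libraries). Calls over all genes rose too under that setting, from 2879 higher and 2985 lower to 3662 and 3649 in null proliferating cells. For the difference between responses they rose from 1935 higher and 1507 lower to 2495 and 2099. Scaling by library size alone moved the balance of all calls: 2677 genes were higher and 4123 lower in null differentiating cells (60.6% lower, against 47.5% with TMM), and 2234 higher and 3847 lower in null proliferating cells (63.3% lower, against 50.9%), while the 8 genes kept 5 and 6 lower calls. The labels do not say which libraries came from the same foetus, and correlations of residuals did not settle it. The main fit took all libraries as unpaired. Same-numbered libraries of different groups correlated in their residuals at r = -0.231 to 0.126 over 24 pairs. In 4 of the pairs a library correlated best with its own number, among them numbers 1 and 2 of intact differentiating with intact proliferating. The 3 pairs over 0.1 were all intact differentiating with intact proliferating (0.126, 0.123 and 0.117 for numbers 1, 2 and 4), where number 3 gave -0.231, so that not every pair was over 0.1. Replicate 1 stands apart in both of these groups. A replicate block by number gave 6 and 5 genes lower in null proliferating and differentiating cells and 6 higher with differentiation in intact cells, where Cbln1 was at 1.08. With genotype and number as the block, Cbln1 was at 0.99 and Cbln2 at 5.31 there. Depth limits statements on Cbln4, Cbln1 and proliferating Cbln2 and Nrxn3, with at most 313 counts in a proliferating group. For a gene without counts in a null group, a level up to 0.0210 CPM in differentiating or 0.0288 CPM in proliferating cells is not excluded.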
